A study of Mus musculus with 19 samples.

Results

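The oxidation of fatty acids in peroxisomes, and their omega-oxidation in the endoplasmic reticulum, was followed in mouse intestinal crypts through 9 genes of the 55487 in the files. They were Acox2, Ehhadh, Hsd17b4, Acaa1a, and Acaa1b of peroxisomal beta-oxidation, Pex11a of the peroxisome membrane, and the omega-hydroxylases Cyp4a10, Cyp4a14, and Cyp4a31. The genes were listed by pathway and matched by symbol to the Ensembl gene IDs of build GRCm38, and all 9 were found. RNA came from small intestinal crypts (the most distal part of the intestine was not used) of 19 C57BL/6 mice, with 1 library per mouse. The fed groups, on standard chow ad libitum, held 5 Nt+/+ and 4 Nt-/- mice, and the groups deprived of food for 48 hours held 5 mice of each genotype. Nt-/- mice lack neurotensin (NT), a gut peptide hormone. The fed mice of the fasting studies were littermates matched by sex and age. The comparisons ask how a fast alters crypt RNA and whether this depends on NT. Mice of both sexes were used, and 1 fasted Nt-/- mouse has no sex label. The study worked with Nt mice with and without an Lgr5-EGFP reporter allele, and the labels of these 19 mice do not name the reporter.

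Peroxisomes shorten very long, branched, and dicarboxylic fatty acids that mitochondria handle poorly. An acyl-CoA oxidase takes the opening step and releases hydrogen peroxide, a bifunctional enzyme (Ehhadh or Hsd17b4) hydrates and dehydrogenates the product, and a thiolase (Acaa1a or Acaa1b) cleaves off acetyl-CoA. Cyp4a enzymes hydroxylate the terminal carbon of a fatty acid, the opening step of omega-oxidation, and the dicarboxylic acids that result can enter the peroxisome. Many of these genes are known in the liver as targets of the fatty acid receptor PPARα, and Pex11a takes part in the growth and division of peroxisomes.

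The Acaa1 pair and the Cyp4a genes are near copies, so the letters by which a read can be assigned matter for the values that follow. The stretches shown were chosen because they differ most within each set. They are coding sequence of exon 6 of the Acaa1 genes and exon 1 of the Cyp4a genes, 60 bases each, in build GRCm38. Capitals in Acaa1b and Cyp4a10 mark bases at which any other gene of the set differs, and capitals in the other genes mark their differences from Acaa1b or Cyp4a10.
Acaa1b (chr9:119151842-119151901, minus strand): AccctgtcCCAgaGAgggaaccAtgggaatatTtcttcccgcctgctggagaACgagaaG
Acaa1a (chr9:119346483-119346542, plus strand): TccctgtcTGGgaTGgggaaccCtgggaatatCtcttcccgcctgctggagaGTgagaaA
Cyp4a10 (chr4:115518406-115518465, plus strand): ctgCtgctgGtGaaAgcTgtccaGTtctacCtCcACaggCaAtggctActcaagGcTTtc
Cyp4a14 (chr4:115495970-115496029, minus strand): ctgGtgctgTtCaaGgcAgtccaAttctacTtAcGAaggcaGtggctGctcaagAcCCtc
Cyp4a31 (chr4:115563801-115563860, plus strand): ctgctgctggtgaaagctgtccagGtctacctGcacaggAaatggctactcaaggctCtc
Cyp4a32 (chr4:115601059-115601118, plus strand): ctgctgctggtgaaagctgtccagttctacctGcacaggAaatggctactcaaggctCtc
In these stretches Acaa1a had 11 differences from Acaa1b, and Cyp4a14, Cyp4a31, and Cyp4a32 had 15, 4, and 3 differences from Cyp4a10. Over the whole coding sequence, Acaa1b was 96.5% identical to Acaa1a. Cyp4a10 was 96.6% identical to Cyp4a31 and 97.2% to the nearby Cyp4a32, which is not among the 9 genes, but only 77.6% to Cyp4a14.

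Of all 100-base windows in the annotated transcripts, the length of a read here, 12.2% of those of Cyp4a10 also occur in Cyp4a31 or Cyp4a32. The share was 19.3% for Acaa1b and 7.2% for Acaa1a, each with the other gene. No window of Cyp4a14, Acox2, Ehhadh, Hsd17b4, or Pex11a occurs in another gene. RSEM, the counting program, divides reads that fit more than 1 gene by a model, and so the Acaa1 and Cyp4a genes were also tested as sums. The counting's strand setting is not given in the sources used here. If strand was not used, 6.7% of the windows of Acaa1b are also met by Dlec1 and 2.5% of those of Acaa1a by Myd88, the overlapping genes on the opposite strand. Dlec1 reached at most 19 counts in a mouse, and Myd88 averaged between 21.3 and 25.5 CPM, counts scaled to the size of the library, in the 4 groups.

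Acaa1b (ENSMUSG00000010651, chr9:119148023-119157093, minus strand) and Acaa1a (ENSMUSG00000036138, chr9:119339676-119350299, plus strand) lie 182582 bases apart. Cyp4a14 (ENSMUSG00000028715, chr4:115486200-115496142, minus strand), Cyp4a10 (ENSMUSG00000066072, chr4:115518264-115533649, plus strand), and Cyp4a31 (ENSMUSG00000028712, chr4:115563649-115579015, plus strand) follow one another in a cluster of Cyp4a genes. Acox2 (ENSMUSG00000021751) is at chr14:8225511-8259353, Ehhadh (ENSMUSG00000022853) at chr16:21761287-21787807, and Pex11a (ENSMUSG00000030545) at chr7:79735957-79743131, all on the minus strand. Promoter windows of 5 of the genes, from 250 bases before to 50 bases after the start (RefSeq, GRCm38.p6, 6 windows in all), were searched on both strands for AGGTCA, the core letters read by many nuclear receptors. None of the 6 held it, against 16.255% of the 32851 windows searched, which do not cover every gene. Hsd17b4, Cyp4a10, Cyp4a14, and Cyp4a31 were not among the genes searched. The 6 windows are too few to tell their result from that share.

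The libraries held 9059457 to 35068711 counts each (median, 18541819). Nts, the gene that encodes NT, had between 73 and 177 counts in every Nt+/+ mouse and between 3 and 15 in every Nt-/- mouse. Fasted Nt+/+ replicate 5 is Nt+/+ by its title and Nt-/- by its genotype label. The title was followed. This mouse is among the Nt+/+ mice counted above, so its Nts counts, at least 73, lie outside the Nt-/- range. Values without this mouse stand beside the results they alter. Counts were tested with edgeR's quasi-likelihood test, and a gene was called at a Benjamini-Hochberg adjusted p under 0.05 over the 17875 genes with enough counts. Of the 9 genes, 7 passed this filter, and Cyp4a14 and Cyp4a31 did not. The p values set each difference against the spread between mice within groups.

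Fasting raised all 7 tested genes in Nt+/+ mice and all 7 in Nt-/- mice. Over all genes tested, 11.2% were called higher with fasting in Nt+/+ mice and 12.5% in Nt-/- mice. Every fasted mouse lay above every fed mouse of its genotype for 7 of 7 genes, which held for 7.63% of all genes in Nt+/+ mice and 10.5% in Nt-/- mice. The median log2 fold change of the 7 was 1.34 in Nt+/+ mice and 1.38 in Nt-/- mice, beside medians of -0.009 and -0.022 over all genes. These counts and medians cover the genes that passed the filter, which Cyp4a10 passed through the fasted mice. The genes were chosen with earlier results of these data known. The shares over all genes are thus given for scale and do not test the list. In RNA from whole crypts, more cells of a type that expresses a gene and more RNA of that gene per cell cannot be told apart.

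**Figure D1:**
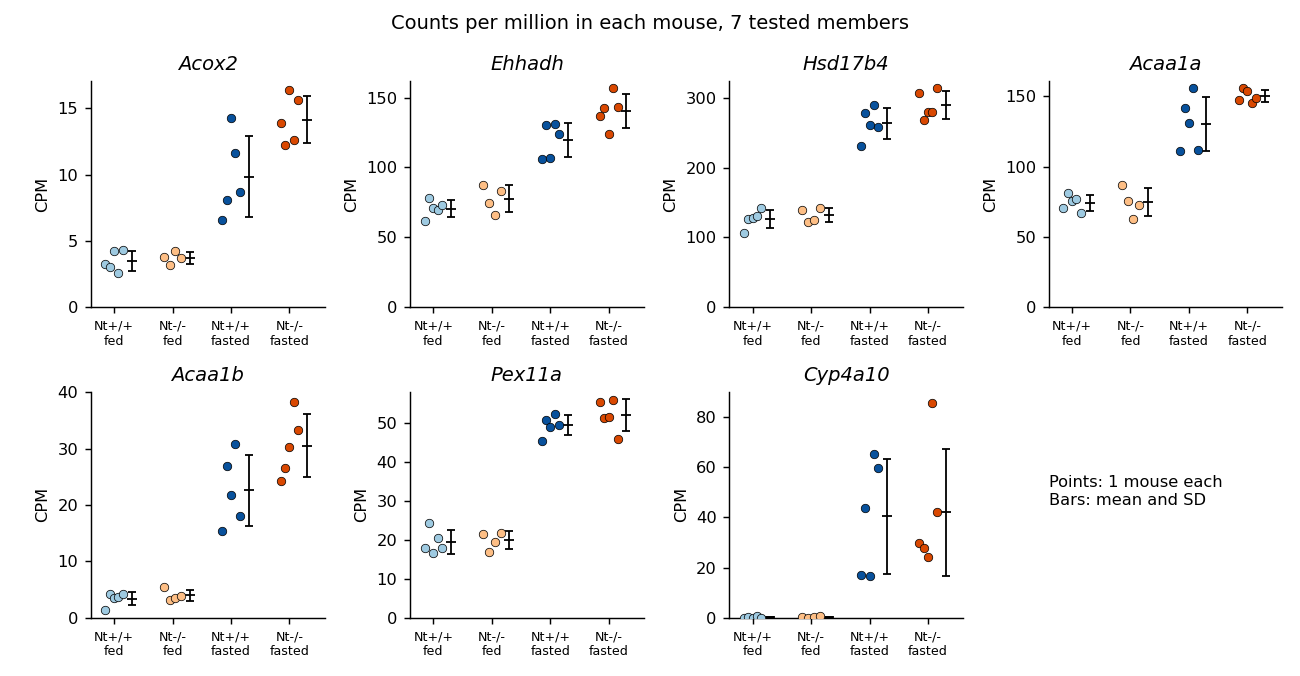
CPM of the 7 tested genes (vertical axes, each from 0) in the 4 groups, with 1 point per mouse and the mean and SD beside the points. Fasted mice lie above fed mice of either genotype in all 7 panels, and Cyp4a10 is near 0 in all fed mice.

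Cyp4a10 rose most. The fed Nt+/+ mice had 0, 3, 1, 10, and 1 Cyp4a10 counts, or at most 0.508 CPM, and the fed Nt-/- mice had 4, 1, 3, and 10 counts, or at most 0.533 CPM. Fasted Nt+/+ mice had 16.9, 43.7, 16.7, 65.4, and 59.5 CPM, and fasted Nt-/- mice had 29.8, 27.9, 24.2, 85.7, and 42.0 CPM. The fed mice were thus all close to the limit of detection, and the fasted mice spread widely, with replicate 4 highest in both genotypes.

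The log2 fold change of Cyp4a10 was 7.99 (standard error 0.67) in Nt+/+ mice and 7.67 (standard error 0.71) in Nt-/- mice. Adjusted p values were 1.22e-07 and 4.19e-07 (edgeR's quasi-likelihood test). The fed means rest on 15 and 18 counts in all, and so the size of the fold is loosely set. Its 95% interval ran from 6.59 to 9.40 on the log2 scale in Nt+/+ mice and from 6.19 to 9.15 in Nt-/- mice. Without fed Nt+/+ replicate 4, which gave 10 of the 15 counts, the value in Nt+/+ mice was 9.17, and without fed Nt-/- replicate 4 the value in Nt-/- mice was 8.49.

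The other Cyp4a genes were at or near 0. Cyp4a14, whose product is also a fatty acid omega-hydroxylase, had 0 counts in 19 of 19 mice, which allows a level of up to 0.0855 CPM in the deepest library and 0.331 CPM in the shallowest. These limits cover counting error only. Cyp4a31 had 16 counts in all, spread over 8 mice with at most 4 in any of them, and so no difference was detectable at this depth.

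Cyp4a32 had 121 counts over 17 mice and at most 18 in a mouse. Its log2 fold change with fasting was 1.56 (adjusted p = 0.122, edgeR's quasi-likelihood test) in Nt+/+ mice and 3.68 (adjusted p = 0.00385, same test) in Nt-/- mice. The difference between the genotypes, 2.12, was not called (unadjusted p = 0.0844, same test across all genes). In fasted mice Cyp4a10 took 98.6% ± 0.822 (SD, n = 5) of the counts of these 4 genes in Nt+/+ mice and 97.7% ± 0.691 (SD, n = 5) in Nt-/- mice. Summed over the 4 genes, the log2 fold change with fasting was 6.96 in Nt+/+ mice and 7.18 in Nt-/- mice (adjusted p = 3.44e-07 and 7.87e-07, edgeR's quasi-likelihood test). The rise was thus also called when reads shared among the 4 genes were not divided. In fed Nt+/+ mice Cyp4a10 took 38.9% ± 27.7 (SD, n = 5) of the counts of the 4 genes. In fed Nt-/- mice it took 77.1% ± 15.8 (SD, n = 4). These fed shares rest on few counts, and the fold of Cyp4a10 alone could depend on how fed reads were divided.

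Among the oxidation enzymes, the thiolase gene Acaa1b rose most. Fed Nt+/+ mice had 1.44, 4.23, 3.43, 3.65, and 4.20 CPM, and fed Nt-/- mice had 5.37, 3.19, 3.56, and 3.89 CPM. Fasted Nt+/+ mice had 15.5, 27.0, 21.7, 30.8, and 18.0 CPM, and fasted Nt-/- mice had 24.3, 26.6, 30.2, 38.3, and 33.3 CPM. The lowest fasted mouse was well above the highest fed mouse.

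The log2 fold change of Acaa1b was 2.73 (standard error 0.24) in Nt+/+ mice and 2.91 (standard error 0.26) in Nt-/- mice, with adjusted p values of 2.65e-07 and 2.83e-07 (edgeR's quasi-likelihood test). Its near copy Acaa1a, from which most thiolase counts came, rose less. Acaa1a ranged from 66.7 to 81.0 CPM in fed Nt+/+ mice and from 62.9 to 87.1 CPM in fed Nt-/- mice. In fasted mice it ranged from 111.0 to 156.2 CPM and from 145.4 to 155.7 CPM. The log2 fold change of Acaa1a was 0.81 (standard error 0.09) and 1.01 (standard error 0.10), in the same order of genotypes.

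The mix of the thiolases moved with the fast. Acaa1b took 4.35% ± 1.45 (SD, n = 5) of the Acaa1 counts in fed Nt+/+ mice and 14.6% ± 1.72 (SD, n = 5) in fasted Nt+/+ mice. In Nt-/- mice it took 5.08% ± 0.742 (SD, n = 4) fed and 16.9% ± 2.77 (SD, n = 5) fasted. The highest share of any fed mouse was 5.93% and the lowest of any fasted mouse was 12.2%. The sum of both genes had log2 fold changes of 0.98 in Nt+/+ mice and 1.20 in Nt-/- mice (adjusted p = 1.67e-06 and 3.26e-07, edgeR's quasi-likelihood test).

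Acox2, the peroxisomal oxidase of branched fatty acids and bile acid intermediates, was low in fed crypts. It was 3.26, 3.02, 4.23, 2.59, and 4.30 CPM in fed Nt+/+ mice and 3.75, 3.14, 4.24, and 3.68 CPM in fed Nt-/- mice. Fasted Nt+/+ mice had 6.60, 8.05, 14.3, 11.6, and 8.68 CPM, and fasted Nt-/- mice had 13.9, 12.3, 16.4, 12.6, and 15.6 CPM. Fed mice of both genotypes overlapped closely, and 2 of 5 fasted Nt-/- mice lay above every fasted Nt+/+ mouse.

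The log2 fold change of Acox2 with fasting was 1.50 (standard error 0.19) in Nt+/+ mice and 1.94 (standard error 0.21) in Nt-/- mice. Adjusted p values were 1.76e-05 and 2.26e-06 (edgeR's quasi-likelihood test).

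The genes of the bifunctional enzymes were abundant before the fast and rose by smaller factors. Ehhadh ranged from 61.3 to 77.9 CPM in fed Nt+/+ mice, 65.7 to 87.1 CPM in fed Nt-/- mice, 105.8 to 131.1 CPM in fasted Nt+/+ mice, and 123.6 to 157.0 CPM in fasted Nt-/- mice. Its log2 fold change, the smallest of the 7 in either genotype, was 0.76 (standard error 0.09) in Nt+/+ mice and 0.86 (standard error 0.10) in Nt-/- mice. Hsd17b4 ranged from 106.8 to 141.6 CPM in fed Nt+/+ mice, 121.4 to 141.7 CPM in fed Nt-/- mice, 230.5 to 289.2 CPM in fasted Nt+/+ mice, and 267.9 to 313.9 CPM in fasted Nt-/- mice. Its log2 fold change was 1.06 (standard error 0.08) and 1.14 (standard error 0.09), in the same order, or 2.08-fold and 2.20-fold.

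Pex11a varied less among fasted than among fed mice relative to its level. Fed Nt+/+ mice had 17.8, 24.4, 16.5, 20.5, and 18.0 CPM, and fed Nt-/- mice had 21.4, 16.9, 19.5, and 21.8 CPM. Fasted Nt+/+ mice had 45.4, 50.9, 49.0, 52.4, and 49.6 CPM, and fasted Nt-/- mice had 55.4, 51.2, 51.6, 56.0, and 46.0 CPM. Its log2 fold change was 1.34 (standard error 0.10) in Nt+/+ mice and 1.38 (standard error 0.10) in Nt-/- mice, with adjusted p values of 1.67e-08 and 2.40e-08 (edgeR's quasi-likelihood test), the smallest of the 7.

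**Figure D2:**
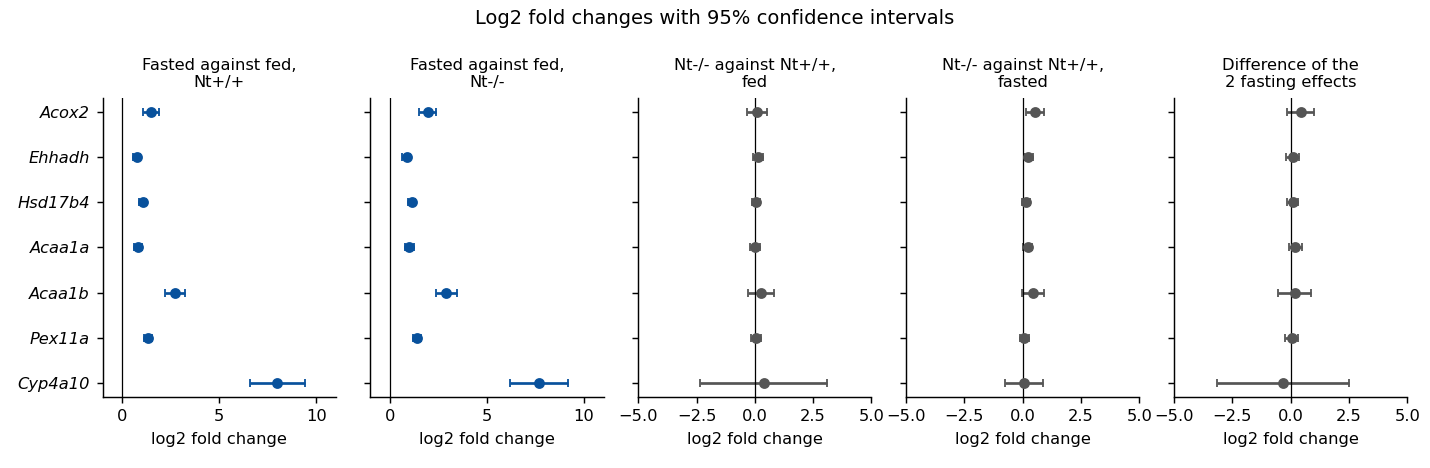
Log2 fold change (horizontal axes) of the 7 tested genes with 95% confidence intervals, in 5 panels for fasting in each genotype, genotype in each diet, and the difference of the fasting effects. The intervals of all 7 lie above 0 in both fasting panels, and the widest are those of Cyp4a10.

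Levels per transcript length, as TPM, which scale counts by both length and library size, put the genes in a similar order in the fed groups. In fed Nt+/+ mice Hsd17b4 averaged 57.5 TPM, Acaa1a 42.8 TPM, Ehhadh 27.6 TPM, Pex11a 11.3 TPM, Acaa1b 2.60 TPM, Acox2 2.16 TPM, and Cyp4a10 0.0860 TPM. The ranges over mice overlapped for Hsd17b4 with Acaa1a and for Acaa1b with Acox2, and not for the other neighbours in that order. In fasted Nt+/+ mice Cyp4a10 averaged 21.9 TPM, behind Hsd17b4 at 114.2 TPM, Acaa1a at 76.2 TPM, Ehhadh at 44.8 TPM, and Pex11a at 27.8 TPM, and ahead of Acaa1b at 16.4 TPM and Acox2 at 7.08 TPM. The range of Cyp4a10 in fasted Nt+/+ mice overlapped those of Pex11a and Acaa1b, so its place among them is not set. In fasted Nt-/- mice the 7 genes had the same order of means.

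**Figure D3:**
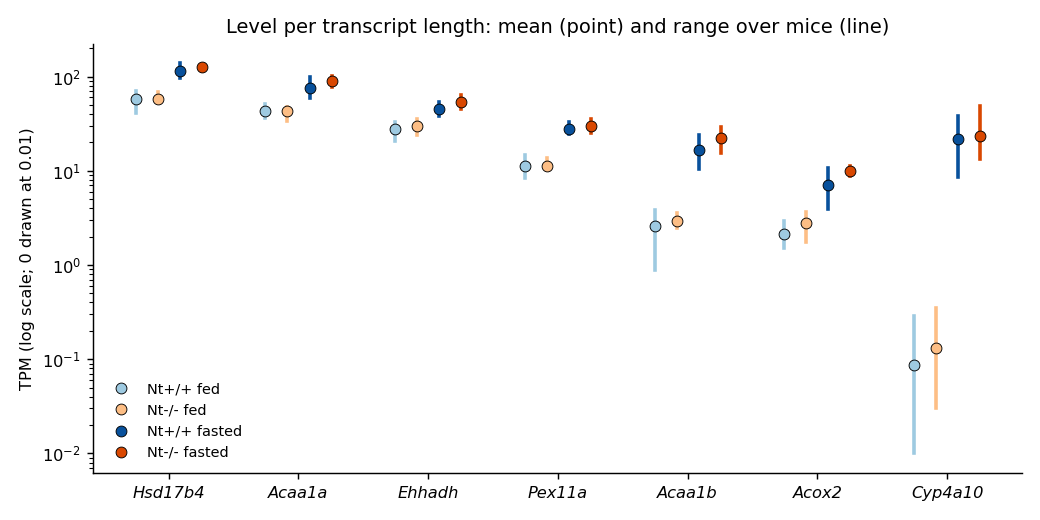
Level of the 7 tested genes in TPM (vertical axis, log scale, with 0 drawn at 0.01) in the 4 groups, with the mean as a point and the range over mice as a line. Hsd17b4 is highest in every group, and Cyp4a10 goes from the lowest fed level to a level near Pex11a and Acaa1b.

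Loss of NT changed none of the genes past the threshold in either diet. In ad libitum–fed mice 0 of 7 were called by edgeR's quasi-likelihood test, against 0.00559% of all genes, and 0 of 7, beside 299 of all 17875 genes, had an unadjusted p under 0.05. DESeq2 also called 0. Log2 fold changes of Nt-/- against Nt+/+ mice ranged from 0.01 (Acaa1a) to 0.37 (Cyp4a10, 95% interval -2.35 to 3.09), with a median of 0.09 beside -0.001 over all genes. For Hsd17b4 the value was 0.06 (95% interval -0.12 to 0.24) and for Pex11a 0.03 (95% interval -0.18 to 0.25), and so the fed genotypes were within 0.25 log2 units of each other at the ends of these intervals. The interval is far wider for Cyp4a10, with at most 10 counts in a fed mouse.

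In fasted mice 0 of 7 genes were called between genotypes by edgeR's quasi-likelihood test, again against 0.00559% of all genes, and 0 by DESeq2, which gave no adjusted p for Acox2. All 7 log2 fold changes were above 0, with a median of 0.21 beside -0.013 over all genes, and 3 of 7 had an unadjusted p under 0.05, as did 1634 of all 17875 genes. These 3 were Acox2 at 0.53 (95% interval 0.15 to 0.90, adjusted p = 0.355), Ehhadh at 0.23 (95% interval 0.05 to 0.42, adjusted p = 0.401), and Acaa1a at 0.21 (95% interval 0.01 to 0.40, adjusted p = 0.517), all by edgeR's quasi-likelihood test. For Ehhadh 4 of 5 fasted Nt-/- mice lay above every fasted Nt+/+ mouse, and for Acox2 2 of 5 did. Ranges overlapped for all 7 genes, whereas 0.94% of all genes had every fasted Nt-/- mouse above every fasted Nt+/+ mouse. Without the mouse whose labels disagree, the values were 0.48, 0.25, and 0.15 for Acox2, Ehhadh, and Acaa1a. With that mouse grouped as Nt-/-, which its Nts counts go against, they were 0.38, 0.22, and 0.0915. Acaa1b, at 0.43 (adjusted p = 0.574, same test), was 0.26 with that grouping. The fasted comparison shares its mice with the fasting comparisons, so its direction is not a separate measurement.

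The effect of fasting did not differ between genotypes past the threshold for any of the 7 genes. The test of the difference called 0 of 7 genes and 0.0% of all genes, with 0 of 7, and 485 of all 17875 genes, at an unadjusted p under 0.05 (edgeR's quasi-likelihood test), and DESeq2 called 0. The largest difference in favour of Nt-/- mice was that of Acox2, 0.43 (95% interval -0.14 to 1.00). Cyp4a10 had the only value below 0, -0.32 (95% interval -3.14 to 2.49), and the sum of the 4 Cyp4a genes had 0.22. In fed mice the genotype value of that sum was -0.16, beside 0.37 for Cyp4a10, and so its sign is not set. For Pex11a the difference was 0.04 (95% interval -0.25 to 0.33) and for Hsd17b4 0.08 (95% interval -0.17 to 0.32).

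Other genes of peroxisomal and fatty acid oxidation are described from 6 lists, written by pathway with earlier results of these data known. Over all genes tested, fasting called 21.6% in Nt+/+ mice and 25.2% in Nt-/- mice, of which the genes called lower made up 10.4% and 12.6% of those tested. Among 18 tested genes of peroxisomal beta-oxidation and acyl-CoA handling, 14 were called higher with fasting in Nt+/+ mice and 14 in Nt-/- mice, with medians of 0.54 and 0.65, and 1 (Nudt19, -0.31) was called lower in Nt+/+ mice. Cat, the catalase that breaks down the hydrogen peroxide made by the oxidases, rose by 1.32 and 1.52 on the log2 scale in Nt+/+ and Nt-/- mice. The isomerases Ech1 (1.31 and 1.38) and Eci2 (1.52 and 1.68), the thioesterase Acot4 (1.40 and 1.57), and the thiolase and carrier protein gene Scp2 (0.75 and 0.96) also rose. Acox3, a further branched-chain oxidase, had log2 fold changes of -0.19 and -0.20 and was not called (adjusted p = 0.11 and 0.10, edgeR's quasi-likelihood test).

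Genes for the entry of fatty acids into the peroxisome and for alpha-oxidation gave 6 of 12 called higher in Nt+/+ mice and 7 of 12 in Nt-/- mice, and none lower. Slc27a2, a very long-chain acyl-CoA synthetase, had log2 fold changes of 1.21 and 1.67, and the fatty acyl-CoA transporter Abcd3 had 0.85 and 0.82. The alpha-oxidation genes Phyh (0.55 and 0.79) and Hacl1 (1.01 and 1.28) and the peroxisome membrane gene Pxmp4 (1.72 and 1.78) rose in both genotypes.

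Peroxins build the peroxisome and import its enzymes, and their values lay on both sides of 0. Of 16, 6 were called higher and 1 lower in Nt+/+ mice, and 7 higher and 1 lower in Nt-/- mice, with medians of 0.05 and 0.15. Over all genes, 11.2% and 12.5% were called higher and 10.4% and 12.6% lower. Pex5, the import receptor, had the largest value in either genotype, 0.62 and 0.56, and others called higher in both genotypes included Pex3 (0.45 and 0.50), Pex16 (0.43 and 0.52), Pex14 (0.33 and 0.33), and Pex19 (0.32 and 0.36). Pex6, an ATPase that recycles the receptor, fell by 0.44 and 0.54 on the log2 scale. Pex11g, a relative of Pex11a, had 0.05 and -0.15 and was not called, beside 1.34 and 1.38 for Pex11a.

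The genes of ether lipid synthesis, another peroxisomal pathway, moved the other way. Of 5, 3 were called lower in Nt+/+ mice and 4 in Nt-/- mice, and none higher. Far1 and Far2, which make the fatty alcohols, had log2 fold changes of -1.24 and -1.58, and of -0.69 and -0.85, and Agps, which forms the ether bond, had -0.63 and -0.50.

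In omega-oxidation, 13 of 22 listed genes could be tested, of which 8 were called higher in Nt+/+ mice and 9 in Nt-/- mice, and none lower. Cyp4b1, another fatty acid hydroxylase, rose by 2.19 and 2.30, Cyp4v3 by 1.17 and 1.68, and Cyp4f13 by 0.53 and 0.64. Por, which passes electrons to these cytochromes, rose by 1.55 and 1.51. Adh4 (2.09 and 2.58) and Aldh3a2 (0.79 and 0.81), a dehydrogenase of alcohols and of fatty aldehydes, rose as well.

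Mitochondrial beta-oxidation rose alongside, with 15 of 17 genes called higher in each genotype, none lower, and medians of 0.69 and 0.71. Its largest values were those of Acadl, the long-chain acyl-CoA dehydrogenase (2.06 and 2.28), Acaa2, the mitochondrial thiolase (2.05 and 2.16), and Slc25a20, the carnitine carrier (1.65 and 1.78), followed by Hadha (1.29 and 1.30) and Hadhb (1.19 and 1.29) of the trifunctional protein and Acadvl (1.08 and 1.02). Between the genotypes, 0 genes of the 6 lists were called in either diet or for the difference of the fasting effects, by edgeR's quasi-likelihood test.

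**Figure D4:**
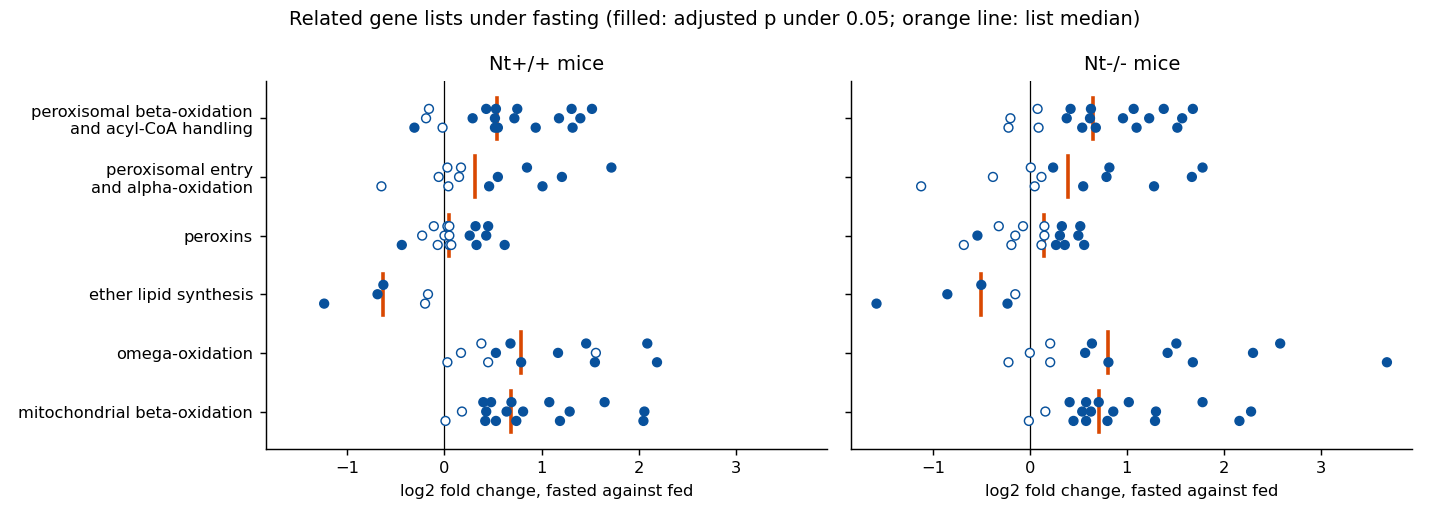
Log2 fold change with fasting (horizontal axis) of each tested gene of the 6 lists in Nt+/+ mice (left) and Nt-/- mice (right), with filled points for genes called at an adjusted p under 0.05 and an orange line at the list's median. Ether lipid synthesis is the list whose median lies well below 0, at -0.63 and -0.50, and peroxins are close to 0, at 0.05 and 0.15.

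Crypt preparations can carry villus epithelium, whose enterocytes absorb fat and use these pathways. All 7 markers of villus enterocytes were tested, and 5 were called higher with fasting in Nt+/+ mice and 7 in Nt-/- mice. Of all genes, 11.2% and 12.5% were called higher. Their summed level ranged from 2908 to 5414 CPM in fed Nt+/+ mice and from 4109 to 6153 CPM in fed Nt-/- mice. In fasted mice it ranged from 4438 to 9137 CPM in Nt+/+ mice and from 8638 to 11811 CPM in Nt-/- mice. Fasted Nt+/+ replicates 1 and 5, at 4438 and 5535 CPM, had marker sums inside the range over fed mice of both genotypes. The sum of replicate 5 was above that of every fed Nt+/+ mouse. In replicates 1 and 5, as in every other fasted mouse, 7 of 7 tested genes were above every fed mouse. The share of all genes above every fed mouse was not counted for single mice. The mean log2 CPM over the 7 genes was 5.38 in replicate 1 and 5.80 in replicate 5, where fasted mice ranged from 5.38 to 6.25. This mean includes Cyp4a10, which had at most 10 counts in a fed mouse. Its log2 fold changes with fasting, 7.99 and 7.67, were the largest of the 7 and widen the gap between fed and fasted means. Replicate 5 is the mouse whose labels disagree, and no fasted Nt-/- mouse had a marker sum in the fed range. In fasted mice all 7 villus markers had log2 fold changes above 0 in Nt-/- against Nt+/+ mice (median, 0.48, 0 called), the same direction as the 7 genes. The part of villus cells in the values with fasting and between genotypes was not tested.

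**Figure D5:**
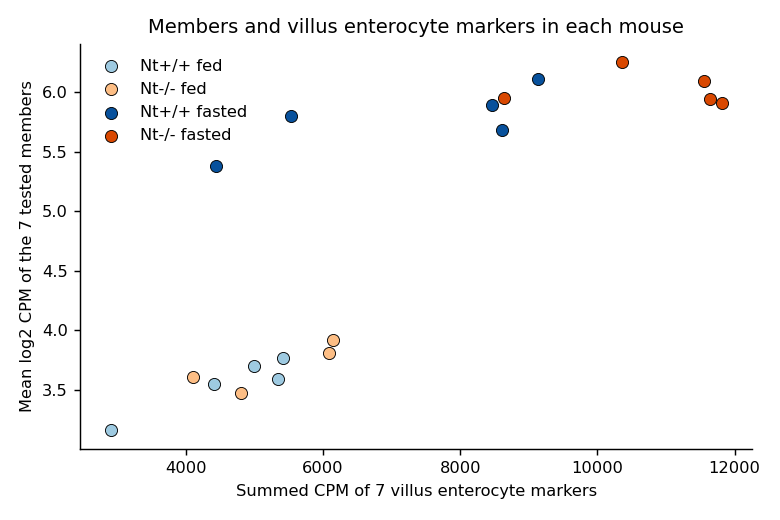
Mean log2 CPM of the 7 tested genes (vertical axis) against the summed CPM of 7 villus enterocyte markers (horizontal axis), with 1 point per mouse. Fed mice lie between 3.16 and 3.92 and fasted mice between 5.38 and 6.25 on the vertical axis. The marker sums of 2 fasted Nt+/+ mice lie in the range over fed mice of both genotypes.

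Markers of other cells were also read. The 3 markers of dividing cells had lower sums with fasting, with 2 called lower in Nt+/+ mice and 3 in Nt-/- mice. Of 4 stem cell markers 1 and 2 were called lower, in the same order of genotypes. Log2 fold changes of 2 and 1 of these 4 were above 0, with medians of 0.01 and -0.25. Of 5 Paneth cell markers 0 were called in Nt+/+ mice and 1 was called lower in Nt-/- mice. Of 3 goblet cell markers 1 and 2 were called lower, and 1 had a value above 0 in each genotype. Shares called over all genes were 10.4% and 12.6% lower, and 11.2% and 12.5% higher, in Nt+/+ and Nt-/- mice. Sums were at most 6.51 CPM for hepatocyte markers, 3.94 CPM for stromal markers, 0.343 CPM for pancreatic acinar markers, and 0.320 CPM for adipocyte markers, and the 3 leukocyte markers had sums of 30.0 to 89.0 CPM with 0 called. Of the 3 hepatocyte markers with enough counts, 1 was called higher and 1 lower in Nt+/+ mice, and 1 lower in Nt-/- mice, and none of the 2 tested stromal markers was called. No adipocyte or acinar marker had enough counts to test, and Pnlip was at 0 in every group.

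Within groups, the 7 genes varied together from mouse to mouse to differing degrees. Over the 19 mice, the Pearson correlation of their deviations from the group means ranged from -0.22 (Acox2 with Cyp4a10) to 0.76 (Hsd17b4 with Acaa1b) over 21 pairs, with a median of 0.44. The values of a mouse share 1 library and its depth, and the correlations are given as descriptions. Deviations of the villus marker sum correlated at 0.82 with those of Acaa1b, 0.72 with Hsd17b4, 0.69 with Acaa1a, and 0.57 with Ehhadh, and at 0.36 to 0.39 with Pex11a, Acox2, and Cyp4a10.

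Of 13070 genes compared by the same measure over 19 mice, those closest to Cyp4a10 were Hsd17b11 (0.85), Fabp1 (0.83), and Rnf13 (0.79). Among those closest to Pex11a were Setd7 (0.74) and Slc25a34 (0.74). Ehhadh was closest to Acad11 (0.87), Hsd17b11 (0.85), and Asb13 (0.84), and Hsd17b4 to Sec14l2 (0.86), Gpd1 (0.84), and Cyp2c68 (0.83). Acox2 was closest to Ppm1l (0.85), Scfd2 (0.85), and Slco3a1 (0.84). The thiolase genes had different neighbours, Btnl5-ps (0.89), Trpm4 (0.88), and Slc7a9 (0.86) for Acaa1a, and Kifc3 (0.86), Slc4a5 (0.85), and E130307A14Rik (0.85) for Acaa1b.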

How the data were processed

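RNA was sequenced from crypts of 19 mice (ribosomal RNA–depleted, single-end libraries). The authors trimmed reads with Trimmomatic 0.39, mapped them with RSEM to Ensembl transcripts of GRCm38, and deposited 1 file per mouse. The deposited columns used were the expected count (a raw estimate), TPM, and, in another unit, the effective length in bases. The RSEM version and strand setting are not given in the sources used here. Of 55487 genes, 55141 were matched to a symbol of the GENCODE annotation of GRCm38. Expected counts were rounded, normalized by TMM, filtered with filterByExpr, and fitted with 1 coefficient per group and no covariate in edgeR 4.0.16 (R 4.3.3), with the quasi-likelihood test and Benjamini-Hochberg adjustment. CPM use TMM library sizes. Log2 CPM for correlations has a prior count of 2. TPM and CPM per kb of effective length served only to order levels. The script was tested on simulated data.

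The 9 genes and the lists were chosen with earlier results of these data known. Genes named in the text are the 9 in every comparison, up to 6 of each list called in both fasting comparisons with the smallest larger p, and the 3 closest genes by correlation. Some genes that meet this rule are not reported here. Exceptions, named after their values were seen, are Acox3, Nudt19, Pex11g, Cyp4a32, and genes that overlap members. Alternatives were upper quartile normalization, DESeq2 1.42.0, no filter, at least 10 counts in every mouse, blocks for either replicate number, sex as covariate, the mouse with disagreeing labels regrouped or left out, only the groups compared, summed paralogs, and each mouse left out.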

Additional observations from a re-analysis of the deposited data

Results flagged for a closer look

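Among 28 sets of values (7 genes in 4 groups of 4 or 5 mice), 3 had a mouse whose gap to its nearest neighbour was large beside the range of its group by Dixon's criterion. By chance about 1 in 20 such groups is marked. Acaa1b was lowest in fed Nt+/+ replicate 1, at 1.44 CPM, where the next mouse had 3.43 CPM. Cyp4a10 was highest in fed Nt+/+ replicate 4, at 0.508 CPM, where the next mouse had 0.133 CPM, a difference of 10 counts from 3. Cyp4a10 was also highest in fasted Nt-/- replicate 4, at 85.7 CPM, where the next mouse had 42.0 CPM. Without that fasted mouse, the log2 fold change of Cyp4a10 with fasting in Nt-/- mice was 7.24 instead of 7.67.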

How the results depend on the processing

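The number of the 7 genes called was 7 in both fasting comparisons under the main fit, and 6 to 7 under 30 alternatives each, with 6 where Acaa1 and Cyp4a genes were summed to 6 features or where Cyp4a10 had too few fed counts to pass the stricter filter. It was 0 in the genotype comparisons under 30 alternatives each and for the difference of the fasting effects under 29. Of 206 member values in each fasting comparison, 206 kept their direction and their call. Leaving out mice moved the log2 fold change of Cyp4a10 between 7.67 and 9.17 in Nt+/+ mice and between 7.24 and 8.49 in Nt-/- mice.

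Values near 0 changed sign under the settings named here, none of them called. In fed mice, Acaa1a (0.01) was -0.0199 with the block for the title number, -0.00378 with sex as covariate, and -0.0771 to 0.0810 with mice left out, Pex11a (0.03) was -0.0168 to 0.131, and Cyp4a10 (0.37) was -0.45 to 1.55. In fasted mice, Cyp4a10 (0.05) was -0.0406 with sex as covariate, for which the mouse without a sex label was dropped, and -0.38 to 0.29 with mice left out. For the difference of the fasting effects, leaving out mice gave -0.0582 to 0.0897 for Pex11a and -1.50 to 0.50 for Cyp4a10. With the mouse of disagreeing labels regrouped, the difference of the fasting effects went from 0.20 to 0.0839 for Acaa1a and from 0.18 to 0.00404 for Acaa1b. The cause was not tested.

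Mice of different groups share replicate numbers, whose meaning is not given. Deviations of same-numbered mice correlated above 0.1 in 19 of 27 pairs for the number of the titles and in 24 of 27 for that of the file names. Among differently numbered mice, 17 and 12 of 108 pairs did. By sex label, 5 of 5 file-name sets and 3 of 5 title sets held mice of 1 sex. The main fit does not use these numbers. With the replicate block, members called stayed at 7 with fasting and 0 between genotypes, and over all genes those called lower in fasted Nt+/+ mice went from 1852 to 2801 with the file-name number. In fasted mice between genotypes DESeq2 called 82 genes higher and 19 lower, where edgeR called 0 and 1. None of the 7 was among them, but DESeq2 gave no adjusted p for Acox2, which could thus not be called. Fed, it called 1 higher and 2 lower, where edgeR called 0 and 1. The single gene called lower was lost with at least 10 counts in every mouse and with the mouse of disagreeing labels regrouped, in either diet. Without fasted Nt-/- replicate 1, 3 genes were called higher in fasted mice. The order of levels by TPM was the same by CPM per kb of effective length. At this depth the fed level of Cyp4a10, at 10 counts or fewer, and the levels of Cyp4a14 and Cyp4a31 could not be compared.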
